A study of Mus musculus with 12 samples.

Results

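The report concerns 10 genes of bone morphogenetic protein (BMP) and transforming growth factor beta (TGF-β) signaling, namely the ligands Bmp4, Tgfb1, Tgfb2, and Tgfb3, the BMP antagonist Grem1, the target genes Id1, Id2, and Id3, and the inhibitory SMADs Smad6 and Smad7. They were chosen by name and found by Ensembl identifier, and 9 of the 10 were among the 12591 genes of the expression table. Id2 was not among them. RNA was sequenced from PER2::LUC mouse embryonic fibroblasts (MEFs) of strain C57 PER2::LUC, reporter cells whose PER2, a component of the circadian clock, carries a luciferase tag. Confluent dishes received new medium for 24 h in 4 groups of 3 replicate dishes. The control group (CTL) received 3.3 mM HCl alone, and the other groups received 10 μM DZ (Deazaneplanocin A, an inhibitor of adenosylhomocysteinase, AHCY), 1 mM adenine, or 1 mM S-adenosylmethionine (SAM), each with the same 3.3 mM HCl. AHCY removes S-adenosylhomocysteine, the by-product that inhibits methyltransferases, and the comparisons ask how the transcriptome responds to each compound. All dishes hold the same kind of reporter cell, and nothing in the sources used here says that the replicate dishes were independent cultures, so the p-values measure the spread between these dishes.

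BMP and TGF-β ligands are secreted proteins that bind paired type I and type II receptor kinases. The active receptors phosphorylate SMAD proteins (SMAD1, SMAD5, and SMAD9 for BMPs, SMAD2 and SMAD3 for TGF-β), which join SMAD4 and regulate genes in the nucleus. The Id genes are classic direct targets of BMP, whereas SMAD6 and SMAD7 are induced by the pathways and feed back to inhibit them. Gremlin 1, the product of Grem1, binds BMP4 and keeps it from its receptors, and fibroblasts are a well-known source and target of TGF-β.

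To show the DNA next to the starts of the genes that bear most on the results, the 250 bases before the canonical transcription start of the target gene Id1 and of the ligand and antagonist pair Bmp4 and Grem1 were read from the GRCm39 genome with GENCODE vM39. The Id1 window is chr2:152577915-152578164 on the plus strand, the Bmp4 window is chr14:46628127-46628376 on the minus strand, and the Grem1 window is chr2:113589001-113589250 on the minus strand. The Id1 and Grem1 windows overlap no annotated exon, and that of Bmp4 overlaps an exon of the noncoding gene Gm63461 on the opposite strand. Each is printed 5′ to 3′, and capitals mark matches on either strand to GGCGCC (a GC-rich SMAD motif), CAGAC (a SMAD-binding element), or CACGTG (the E-box bound by clock transcription factors). No match shown overlaps another.
Id1: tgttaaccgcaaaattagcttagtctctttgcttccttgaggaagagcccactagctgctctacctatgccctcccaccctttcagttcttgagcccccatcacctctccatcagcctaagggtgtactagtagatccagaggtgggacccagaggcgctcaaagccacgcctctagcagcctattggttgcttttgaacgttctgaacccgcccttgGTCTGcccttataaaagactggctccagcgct
Bmp4: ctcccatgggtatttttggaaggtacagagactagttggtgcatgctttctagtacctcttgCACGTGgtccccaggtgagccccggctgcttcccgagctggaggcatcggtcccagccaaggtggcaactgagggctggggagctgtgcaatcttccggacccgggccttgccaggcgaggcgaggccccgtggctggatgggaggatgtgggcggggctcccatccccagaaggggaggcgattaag
Grem1: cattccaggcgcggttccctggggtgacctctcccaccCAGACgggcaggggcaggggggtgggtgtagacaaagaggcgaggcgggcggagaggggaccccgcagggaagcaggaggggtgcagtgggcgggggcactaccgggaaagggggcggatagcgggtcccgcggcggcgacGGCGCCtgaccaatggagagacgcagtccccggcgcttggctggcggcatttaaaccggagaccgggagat
The Id1 window holds 1 CAGAC match on the opposite strand, 32 bases before the start. In the Bmp4 window there is 1 CACGTG match, 188 bases before the start. The Grem1 window holds a GGCGCC match 71 bases before the start and a CAGAC match 212 bases before it. Among 12574 windows of the same length before the starts of the genes in the table, GGCGCC was found in 12.5%, CAGAC in 40.6%, and CACGTG in 7.46%. Among the 9 genes, GGCGCC was found in 1 (Grem1), CAGAC in 4 (Grem1, Id1, Id3, and Tgfb2), and CACGTG in 2 (Bmp4 and Smad7). GC content was 52.8% in the Id1 window, 63.2% in that of Bmp4, and 70.8% in that of Grem1. The matches describe the letters of these windows and not binding.

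Values are log2 CPM, where CPM are counts scaled to the normalized size of each library. The libraries held between 45649534 and 56789090 reads on the listed genes. A change was called where the adjusted p of limma over all 12591 genes was under 0.01, and "rose" and "fell" are used only of called changes. Of 10 fibroblast markers 8 were in the table (Dcn and Lum were not), and their summed level was 21800 to 22300 CPM in CTL, 27700 to 28300 with DZ, 24200 to 26500 with adenine, and 15900 to 17200 with SAM. No endothelial marker of 5 and no epithelial marker of 6 was in the table. Of 6 leukocyte markers only Cd68 was, at 3.03 to 4.0 CPM in CTL, 2.73 to 3.78 with DZ, 10.8 to 12.3 with adenine, and 15.6 to 17.7 with SAM. Of the osteogenic markers 1 of 5 was in the table (Runx2, between 120.0 and 139.0 CPM in all libraries), and of the skeletal muscle markers 1 of 5 (Acta1, 1.34 to 4.91 CPM). The share of reads on 13 mitochondrial mRNAs was 3.53% to 3.71% in CTL, 3.45% to 3.67% with DZ, 3.33% to 3.44% with adenine, where all libraries lay below CTL, and 3.03% to 3.54% with SAM. The part of these differences in the results was not tested, and in bulk RNA a change in the number of cells of a type cannot be told apart from a change in RNA per cell.

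The 9 genes mostly rose. With DZ, 6 of 9 were called, 5 higher (Id1, Id3, Bmp4, Grem1, and Tgfb2) and 1 lower (Tgfb1), against 45.9% of all genes called, 22.6% higher and 23.4% lower. With adenine, 8 of 9 were called and all 8 were higher, against 61.6% of all genes called, 30.6% higher and 31% lower. With SAM the same 8 genes as with adenine were called higher, that is, all but Smad7, against 69.3% of all genes called, 33.7% higher and 35.7% lower. The median log2 fold change of the 9 genes was 0.27 with DZ, 0.73 with adenine, and 0.71 with SAM, whereas that of all genes was -0.0057, -0.0030, and -0.0154. The treated and CTL libraries did not overlap for 6 of the 9 genes with DZ (65.4% of all genes), 8 with adenine (74.7%), and 9 with SAM (77.6%). All 3 comparisons share the CTL libraries, and the genes were chosen with earlier results known, so the counts describe these genes only.

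**Figure D1:**
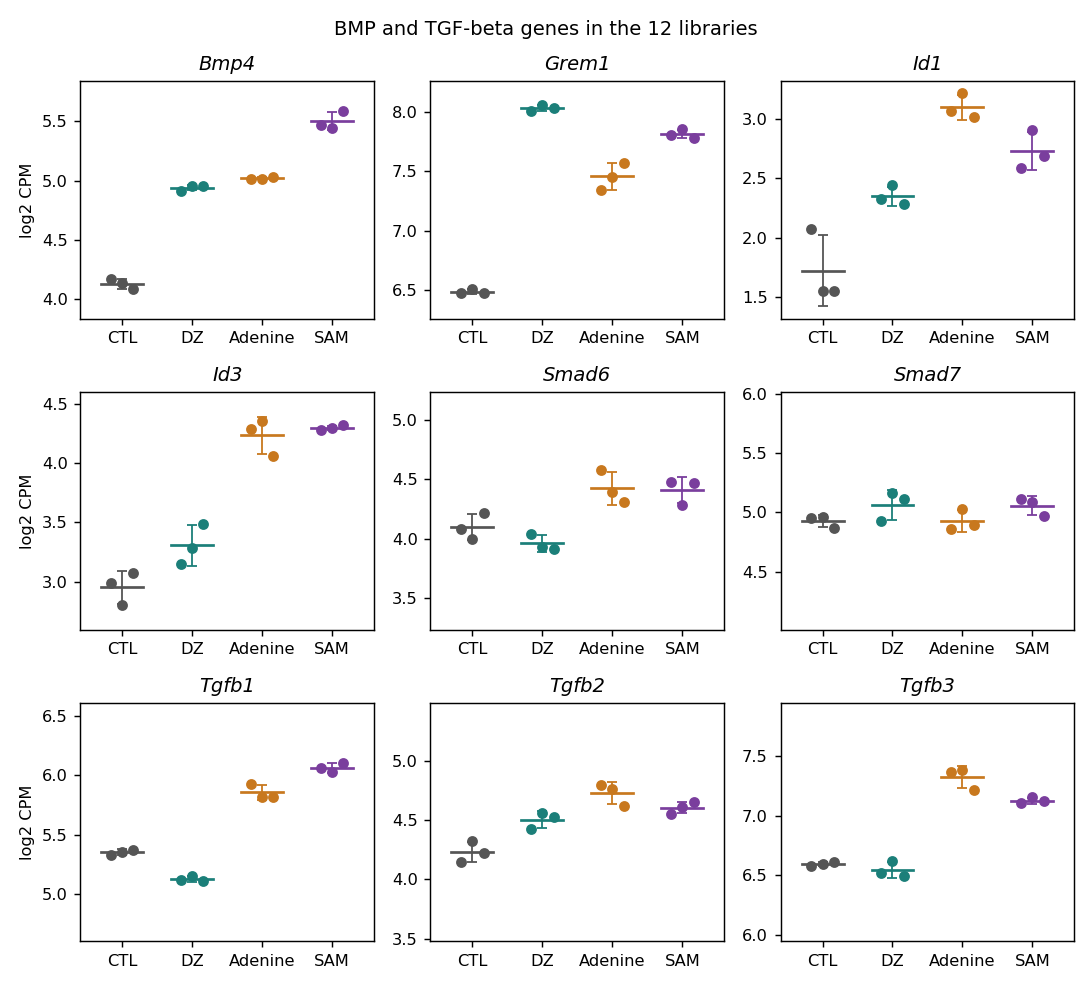
Each panel plots log2 CPM of 1 gene in the 12 libraries (points), with the mean (line) and SD (bar) of the 3 libraries of each group; all panels span the same number of log2 units. The Grem1 libraries are highest with DZ and those of Bmp4 with SAM, the DZ libraries of Tgfb1 lie below CTL, and the Smad7 groups lie close together.

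Bmp4 encodes a BMP ligand and lies at chr14:46620250-46636745. Its CTL libraries were at 4.17, 4.13, and 4.09 log2 CPM, the DZ libraries at 4.91, 4.95, and 4.95, the adenine libraries at 5.02, 5.01, and 5.03, and the SAM libraries at 5.47, 5.44, and 5.59. No treated library overlapped CTL, and the SAM libraries were the highest. Bmp4 rose by 0.81 ± 0.046 (log2 fold change ± SE, the SE of a gene being the same in all comparisons) with DZ, by 0.89 with adenine, and by 1.37 with SAM, with limma adjusted p of 1.78e-09, 9.67e-11, and 4.08e-13. As linear folds these were 1.75, 1.85, and 2.58. Among all genes, called or not, 225 had a higher log2 fold change than Bmp4 with DZ, 872 with adenine, and 581 with SAM. None of the other 11 BMP and GDF ligand genes listed, Bmp2 and Bmp7 among them, was in the table. The table holds only genes that reached a CPM of 1 in every sample. The absence of these ligands therefore does not show that they were unexpressed or unchanged.

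Grem1, at chr2:113576509-113589000, encodes the secreted antagonist of BMP4. It was at 6.47, 6.51, and 6.47 log2 CPM in CTL, at 8.01, 8.05, and 8.03 with DZ, at 7.34, 7.46, and 7.57 with adenine, and at 7.80, 7.85, and 7.78 with SAM. The 4 groups did not overlap, and DZ gave the highest libraries. The rise was 1.55 ± 0.043 with DZ (2.92-fold), 0.97 with adenine (1.96-fold), and 1.33 with SAM (2.51-fold), with limma adjusted p of 1.18e-12, 1.82e-11, and 3.09e-13. Among all genes, called or not, 51 (0.405%) had a higher log2 fold change with DZ, compared with 781 (6.20%) with adenine and 612 (4.86%) with SAM. Per kb of canonical transcript, the level of Grem1 exceeded that of Bmp4 by 1.78 ± 0.044 log2 units (SD, n = 3) in CTL, 2.52 ± 0.013 with DZ, 1.86 ± 0.11 with adenine, and 1.74 ± 0.11 with SAM. The DZ libraries (2.50 to 2.53) lay above those of every other group (1.62 to 1.97) in this difference of levels.

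Id1 and Id3 encode inhibitors of helix-loop-helix transcription factors. Id1 (chr2:152566218-152579544) was low, with 132 to 184 reads in CTL, and 92.8% of genes had a higher CTL mean. Its CTL libraries were at 2.07, 1.55, and 1.55 log2 CPM, those with DZ at 2.32, 2.44, and 2.29, those with adenine at 3.07, 3.22, and 3.01, and those with SAM at 2.59, 2.91, and 2.69. CTL replicate 1 stood above the other CTL libraries but below all treated ones. Id1 rose by 0.63 ± 0.13 with DZ (1.54-fold), 1.38 with adenine (2.59-fold), and 1.00 with SAM (2.01-fold), with limma adjusted p of 8.73e-04, 1.70e-07, and 4.50e-06. The adenine libraries were the highest, and these did not overlap those with SAM.

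Id3 (chr4:135870808-135873066) was at 2.99, 2.80, and 3.07 log2 CPM in CTL and at 3.15, 3.29, and 3.49 with DZ. It reached 4.29, 4.35, and 4.06 with adenine and 4.28, 4.30, and 4.32 with SAM. Every adenine and SAM library lay above every CTL and DZ library. The rise with DZ was 0.35 ± 0.097 (limma adjusted p = 0.00583). That call was lost without CTL replicate 1 (adjusted p = 0.0125), CTL replicate 2 (0.28, adjusted p = 0.0332), DZ replicate 2 (adjusted p = 0.0141), or DZ replicate 3 (0.26, adjusted p = 0.0369). With adenine Id3 rose by 1.28 (2.42-fold, adjusted p = 9.91e-09) and with SAM by 1.34 (2.54-fold, adjusted p = 3.88e-09). Like Id1, Id3 was called higher in all 3 comparisons.

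Of the 9 genes, the inhibitory SMADs had the smallest changes with adenine and SAM. Smad6, at chr9:63860341-63929793, was at 4.08, 4.0, and 4.21 log2 CPM in CTL, 4.04, 3.93, and 3.91 with DZ, 4.58, 4.39, and 4.31 with adenine, and 4.47, 4.28, and 4.47 with SAM. The adenine and SAM libraries all lay above CTL, whereas those with DZ overlapped it. Smad6 rose by 0.33 ± 0.079 with adenine (limma adjusted p = 0.00173) and by 0.31 with SAM (adjusted p = 0.00214). Without CTL replicate 2 both calls were lost (adjusted p = 0.0109 and 0.0132), as was the adenine call without adenine replicate 1 (adjusted p = 0.013) and the SAM call without SAM replicate 1 (adjusted p = 0.011). With DZ the difference was -0.14, with a 95% interval of -0.30 to 0.03.

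Smad7 (chr18:75500374-75529006) acts on both pathways and was called in no comparison with CTL. Its libraries were at 4.96, 4.96, and 4.87 in CTL, 4.92, 5.16, and 5.11 with DZ, 4.86, 5.03, and 4.89 with adenine, and 5.12, 5.09, and 4.97 with SAM, all in log2 CPM. The SAM libraries lay just above CTL and the other groups overlapped it. The log2 differences from CTL were 0.14 with DZ (95% interval -0.004 to 0.28), -0.002 with adenine (-0.14 to 0.14), and 0.13 with SAM (-0.01 to 0.27). With libraries scaled to total counts the difference with SAM was 0.25 and was called (limma adjusted p = 0.00235), beside a median of 0.1065 for all genes under that scaling.

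Tgfb1 encodes the founding TGF-β ligand and lies at chr7:25386390-25404506. It was at 5.32, 5.36, and 5.37 log2 CPM in CTL, 5.12, 5.15, and 5.11 with DZ, 5.93, 5.81, and 5.82 with adenine, and 6.06, 6.02, and 6.11 with SAM. The 4 groups did not overlap, and only the DZ libraries were below CTL. Tgfb1 fell by 0.22 ± 0.040 with DZ (0.856-fold, limma adjusted p = 2.12e-04), and rose by 0.50 with adenine (1.42-fold, adjusted p = 1.67e-08) and by 0.71 with SAM (1.64-fold, adjusted p = 1.72e-10). It was the only 1 of the 9 genes called in opposite directions.

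Tgfb2 (chr1:186354985-186438294) rose in all 3 comparisons. Its libraries were at 4.15, 4.32, and 4.22 log2 CPM in CTL, 4.42, 4.56, and 4.52 with DZ, 4.80, 4.76, and 4.62 with adenine, and 4.55, 4.61, and 4.65 with SAM. All treated libraries were above CTL. The DZ libraries all lay below the adenine libraries, and the SAM libraries overlapped both groups. The rise was 0.27 ± 0.062 with DZ, 0.49 with adenine, and 0.37 with SAM, with limma adjusted p of 0.00158, 3.36e-06, and 5.28e-05. The DZ call rested on CTL replicate 1, without which the rise was 0.23 and the adjusted p was 0.01.

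Tgfb3 (chr12:86102756-86126301) was the most abundant of these ligands per kb in every group. It was at 6.58, 6.59, and 6.61 log2 CPM in CTL and at 6.52, 6.62, and 6.49 with DZ, which overlapped CTL. The adenine libraries were at 7.37, 7.39, and 7.22 and the SAM libraries at 7.11, 7.16, and 7.13, all above CTL. Tgfb3 rose by 0.73 ± 0.043 with adenine (1.66-fold, limma adjusted p = 4.42e-10) and by 0.53 with SAM (1.45-fold, adjusted p = 1.44e-08), and the difference with DZ was -0.05, with a 95% interval of -0.14 to 0.04. Tgfb3 overlaps Ttll5 on the opposite strand, which was also in the table, and whether reads were assigned by strand is not given in the sources used here. Id1, Id3, Bmp4, and Tgfb2 overlap opposite-strand noncoding genes that were not in the table, and the other 4 genes overlap none.

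**Figure D2:**
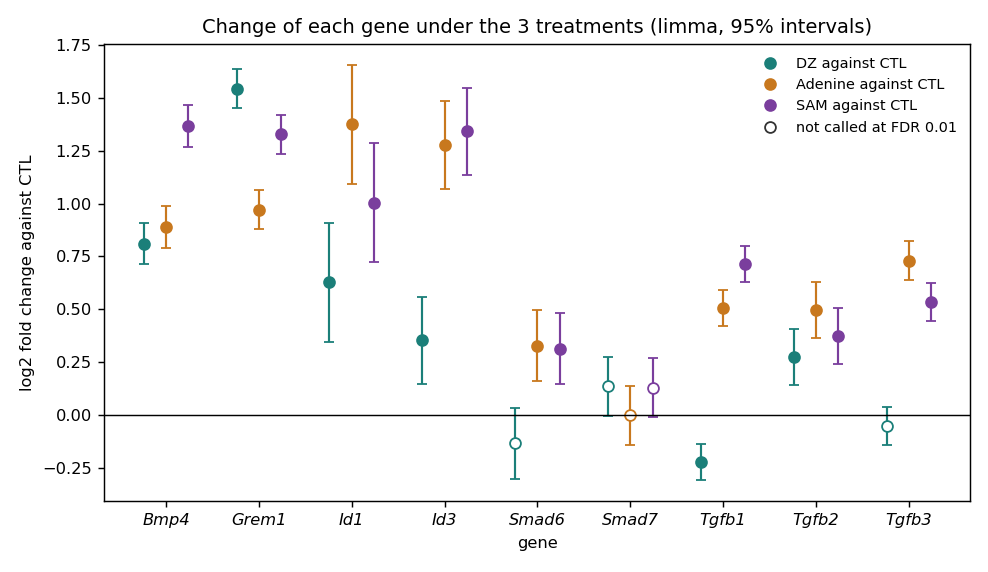
The plot gives the log2 fold change against CTL (y axis) of each of the 9 genes (x axis) for DZ, adenine, and SAM, with 95% intervals from limma; open points were not called. The only called fall was that of Tgfb1 with DZ, and no point of Smad7 was called.

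The order of levels between genes was read per kb of canonical transcript. In CTL the order was Tgfb3 (4.54 log2 CPM per kb), Grem1 (4.43), Tgfb1 (4.20), Smad7 (2.76), Bmp4 (2.65), Id3 (2.60), Smad6 (2.48), Tgfb2 (1.84), and Id1 (1.52). The neighbors Bmp4 and Id3, Id3 and Smad6, and Tgfb2 and Id1 overlapped in their libraries and the others did not. Grem1 took the first place in every treated group, at 5.98 with DZ, 5.40 with adenine, and 5.76 with SAM, although with adenine its libraries overlapped those of Tgfb3 (5.27). Id1 was last in CTL, whereas Tgfb2 was last with DZ (2.12, overlapping Id1 at 2.14), adenine (2.34), and SAM (2.22).

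To ask whether SAM and adenine, given at the same dose and time, differed in these genes, the 2 groups were compared directly for each of the 9 genes, with p-values adjusted over all 12591 genes. With SAM, 3 of the 9 genes were higher than with adenine (20.8% of all genes) and 1 was lower (22% of all genes). Bmp4 was higher by 0.48 ± 0.046 (1.39-fold, limma adjusted p = 5.53e-07), Grem1 by 0.36 ± 0.043 (1.28-fold, adjusted p = 6.58e-06), and Tgfb1 by 0.21 ± 0.040 (1.16-fold, adjusted p = 4.13e-04), and for each of them all SAM libraries lay above all adenine libraries. Tgfb3 was lower with SAM by 0.20 ± 0.043 (log2 difference -0.20, adjusted p = 0.00118), a call that was lost with total-count scaling (-0.14, adjusted p = 0.0113). The ligand Bmp4 and its antagonist thus both stood higher with SAM, while the TGF-β ligands differed in direction.

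For the other 5 genes no difference between SAM and adenine was called. The interval of the difference was -0.65 to -0.09 for Id1, whose SAM libraries were all below the adenine libraries (-0.37, limma adjusted p = 0.0272). It was -0.14 to 0.27 for Id3, -0.18 to 0.16 for Smad6, -0.01 to 0.27 for Smad7, and -0.25 to 0.01 for Tgfb2. In structure SAM is methionine joined to adenosine and so holds the adenine base, whereas DZ is a carbocyclic analog of a deazaadenosine. DZ was given at a lower dose, 10 μM against 1 mM, so its values are given beside the others, gene by gene above, without a test.

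**Figure D3:**
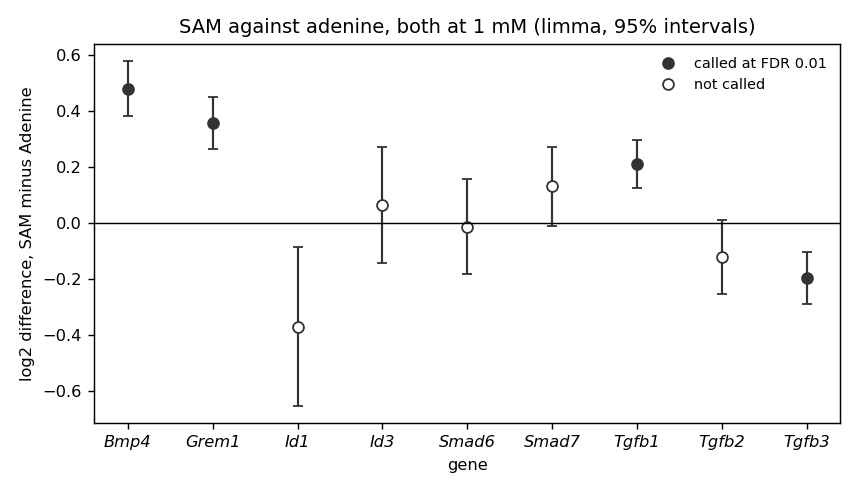
The plot gives the log2 difference between SAM and adenine, both at 1 mM for 24 h (y axis, SAM minus adenine), for each of the 9 genes (x axis), with 95% intervals from limma; filled points were called. Bmp4, Grem1, and Tgfb1 lie above 0 and Tgfb3 below it, and the intervals of Id3, Smad6, Smad7, and Tgfb2 include 0.

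To set these genes beside the rest of the pathway, a list of 92 other genes of BMP and TGF-β signaling was used, of which 63 were in the table. With DZ 34 of the 63 were called (24 higher and 10 lower), with adenine 46 (31 higher and 15 lower), and with SAM 44 (27 higher and 17 lower). The shares called were 54.0%, 73.0%, and 69.8%, beside 45.9%, 61.6%, and 69.3% of all genes. The counts by role below are to be read against the shares of all genes. Those called higher were 22.6% with DZ, 30.6% with adenine, and 33.7% with SAM. Those called lower were 23.4%, 31%, and 35.7%. The median log2 fold change of the 63 genes was 0.05, 0.12, and 0.14, lower than that of the 9 genes above in each comparison. The 9 genes were chosen with earlier results of these data known, so this difference describes these lists only. In the direct comparison of SAM with adenine 40 of the 63 were called, 12 higher and 28 lower, beside 20.8% and 22% of all genes. Of the proteins that hold TGF-β latent or release it, 7 were lower with SAM, and so were 7 intracellular inhibitors and ubiquitin ligases. With total-count scaling these counts were 6 and 5.

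Among extracellular antagonists and modulators of BMPs and activins, 7 of 14 listed were in the table, and 4 rose and 1 fell with DZ, 5 rose with adenine, and 5 rose and 1 fell with SAM. Bmper, a secreted modulator of BMPs, changed the most of them in all 3 comparisons. Its CTL libraries were at 0.70, 1.03, and 1.07 log2 CPM, those with DZ at 2.04, 2.44, and 2.20, those with adenine at 2.61, 2.57, and 2.25, and those with SAM at 2.61, 2.81, and 3.00. All treated libraries were above CTL, and Bmper rose by 1.29 ± 0.14, 1.54, and 1.87 (limma adjusted p = 2.47e-06, 1.32e-07, and 9.45e-09). Fstl1, a follistatin-related secreted protein, fell by 0.21 with DZ and rose by 0.71 with adenine and by 0.28 with SAM (adjusted p = 9.73e-06, 3.28e-12, and 1.32e-07). Crim1, a membrane protein that binds BMPs, rose by 0.42 with DZ and fell by 0.38 with SAM, while its value with adenine was -0.02 (adjusted p = 0.767).

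Of the receptors and co-receptors 14 of 17 were in the table, and 6 rose and 1 fell with DZ, 6 rose and 3 fell with adenine, and 5 rose and 3 fell with SAM. These counts depended on the scaling. With total-count scaling 8 were higher and 1 lower with SAM. With library medians set equal, 4 were higher and 2 lower with DZ. The counts of the other roles also moved with the scaling in some comparisons. Bambi, a decoy receptor without a kinase domain, was at 1.18, 1.35, and 1.32 log2 CPM in CTL and at 2.83, 2.74, and 2.73 with SAM. It rose by 0.40 ± 0.10 with DZ, 0.99 with adenine, and 1.49 with SAM (limma adjusted p = 0.00312, 3.05e-07, and 1.75e-09), and the difference between SAM and adenine, 0.50, was also called (adjusted p = 7.17e-04). The DZ call of Bambi was lost without CTL replicate 1, DZ replicate 2, or DZ replicate 3. The type II activin receptor Acvr2b was low, with 169 to 224 reads in CTL and 78 to 133 with adenine. It fell by 0.60 with DZ (a call lost in 6 of 15 alternative fits, among them those without CTL replicate 2 or 3 or DZ replicate 2 or 3) and by 1.14 with adenine (adjusted p = 2.25e-05), and its value with SAM was -0.42 (adjusted p = 0.0369). Acvr2a, of the same type, fell by 0.88 with SAM (adjusted p = 6.52e-11) and by 0.16 with adenine (a call lost in 5 of 16, among them those without CTL replicate 2 or adenine replicate 1 or 2), and its value with DZ was 0.12 (adjusted p = 0.0302). Between SAM and adenine 5 of the 14 were higher with SAM and 5 lower, among the latter Acvr2a (-0.72, limma adjusted p = 5.41e-09). With total-count scaling 5 were higher and 3 lower.

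Among the SMADs that carry the signal, 5 of 6 were in the table, and 1 rose with DZ, 2 rose and 1 fell with adenine, and 3 rose and 1 fell with SAM. Smad3, which carries TGF-β signals, rose by 0.65 with adenine and by 0.34 with SAM (limma adjusted p = 5.01e-10 and 8.93e-07), and its value with DZ was 0.12 (adjusted p = 0.013). Smad4, the shared partner, fell by 0.22 with adenine and by 0.33 with SAM (adjusted p = 5.29e-06 and 3.91e-08). Smad1, of the BMP branch, rose by 0.20 with DZ, a call lost without CTL replicate 1, DZ replicate 2, or DZ replicate 3, and by 0.32 with SAM, and its value with adenine was 0.06 (adjusted p = 0.231). Of 4 activin and related ligand genes in the table, 1 rose and 2 fell with DZ, 3 rose and 1 fell with adenine, and 2 rose and 1 fell with SAM. Inha, the inhibin alpha subunit, was low, with 182 to 258 reads in CTL and 97 to 108 with SAM. Genes that did not reach a CPM of 1 in every sample are not in the table. Inha fell by 0.54 with DZ, 0.86 with adenine, and 1.37 with SAM (adjusted p = 0.00273, 2.63e-05, and 1.18e-07), and the DZ call was lost without CTL replicate 2 or 3 or DZ replicate 2 or 3. Gdf11, another ligand of the family, fell by 0.39 with DZ and rose by 0.57 with adenine and by 0.63 with SAM, and Inhbb, an activin subunit, rose by 0.24 with DZ, 0.23 with adenine, and 0.60 with SAM (adjusted p = 0.00138, 0.00131, and 6.07e-08).

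Of the 9 proteins in the table that hold TGF-β latent or release it, 5 were higher and 2 lower with DZ, 7 higher and 2 lower with adenine, and 5 higher and 3 lower with SAM. Ltbp4, a latent TGF-β binding protein, fell by 1.14 ± 0.047 with DZ, 0.45 with adenine, and 0.89 with SAM (limma adjusted p = 6.32e-11, 5.15e-07, and 9.03e-11). Ltbp2, of the same family, rose by 1.22 ± 0.068 with adenine and by 0.80 with SAM (adjusted p = 2.34e-10 and 2.88e-08), and by 0.28 with DZ (adjusted p = 0.00235), a call lost without CTL replicate 2 or 3 or DZ replicate 2 or 3. Thbs1, thrombospondin 1, which can activate latent TGF-β, rose by 1.07 ± 0.060 with DZ (adjusted p = 1.63e-09), with libraries at 12.40, 12.60, and 12.48 log2 CPM against 11.48, 11.40, and 11.39 in CTL. It also rose by 0.42 with adenine (adjusted p = 1.26e-05) and by 0.22 with SAM (adjusted p = 0.00408), and the SAM call was lost in 6 of 16 alternative fits, among them those without CTL replicate 2 or 3 or SAM replicate 1 or 2.

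The 9 intracellular inhibitors and ubiquitin ligases mostly fell with adenine and SAM. With adenine 6 fell and none was called higher, and with SAM 6 fell and none was called higher, beside 31% and 35.7% of all genes called lower, whereas with DZ 1 rose and 2 fell. The absence of rises depended on the scaling. With total-count scaling 2 were higher and 5 lower with adenine (Ski and Smurf2 higher) and 2 were higher and 6 lower with SAM (Ski and Tgif2 higher), and with quantile normalization 1 (Ski) was higher and 6 were lower with each. The median log2 fold change of the 9 was 0.03 with DZ, -0.18 with adenine, and -0.40 with SAM, and with total-count scaling it was 0.05, -0.12, and -0.28. Pmepa1, a TGF-β-induced inhibitor of SMAD2 and SMAD3, was at 7.88, 7.83, and 7.87 log2 CPM in CTL, 7.46, 7.43, and 7.30 with adenine, and 7.07, 7.11, and 7.02 with SAM, with no overlap. It fell by 0.46 ± 0.040 with adenine and by 0.79 with SAM (limma adjusted p = 4.91e-08 and 4.97e-11), and its value with DZ was 0.03 (adjusted p = 0.545). Smurf1, a ubiquitin ligase for SMADs and receptors, rose by 0.43 with DZ and fell by 0.25 with adenine and by 0.39 with SAM (adjusted p = 1.94e-07, 2.28e-05, and 1.51e-07). Tgif2, a corepressor, fell by 0.21 with DZ, a call lost without CTL replicate 1 or 3 or DZ replicate 1, and its values with adenine and SAM were -0.06 and 0.07 (adjusted p = 0.361 and 0.272).

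Other target genes went in both directions, with more rises than falls in each comparison with CTL. Of 15 in the table, 6 rose and 2 fell with DZ, 8 rose and 2 fell with adenine, and 7 rose and 2 fell with SAM. Hey1, a transcriptional repressor induced by BMP and by Notch, was at 1.73, 2.19, and 0.39 log2 CPM in CTL, 2.54, 2.73, and 2.72 with DZ, 3.74, 3.58, and 3.56 with adenine, and 3.96, 3.86, and 3.96 with SAM. All treated libraries were above CTL, where replicate 3 was far below the others. Hey1 rose by 1.23 ± 0.29 with DZ, 2.19 with adenine, and 2.49 with SAM (limma adjusted p = 0.00218, 6.6e-06, and 1.24e-06). Without CTL replicate 3 the rises were smaller, 0.70 with DZ, 1.67 with adenine, and 1.97 with SAM, all still called. Hes1, which is also a Notch target, rose by 0.96 with adenine and by 0.75 with SAM (adjusted p = 5.16e-09 and 7.13e-08) and fell by 0.25 with DZ, a call lost in 9 of 16 alternative fits, among them those without CTL replicate 1 or 3 or any DZ library.

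Unc5b, a netrin receptor on the list of targets, was at 7.88, 7.78, and 7.82 log2 CPM in CTL, 6.68, 6.75, and 6.59 with adenine, and 6.64, 6.65, and 6.47 with SAM. It fell by 1.15 ± 0.048 with adenine and by 1.24 with SAM (limma adjusted p = 8.56e-12 and 2.26e-12), and its value with DZ was -0.11 (adjusted p = 0.0629). Ccn2, the connective tissue growth factor and a familiar TGF-β target, was chosen after its values were seen. It rose by 0.78 ± 0.087 with DZ (adjusted p = 2.36e-06), whereas its values with adenine and SAM were -0.07 and 0.12 (adjusted p = 0.483 and 0.22).

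**Figure D4:**
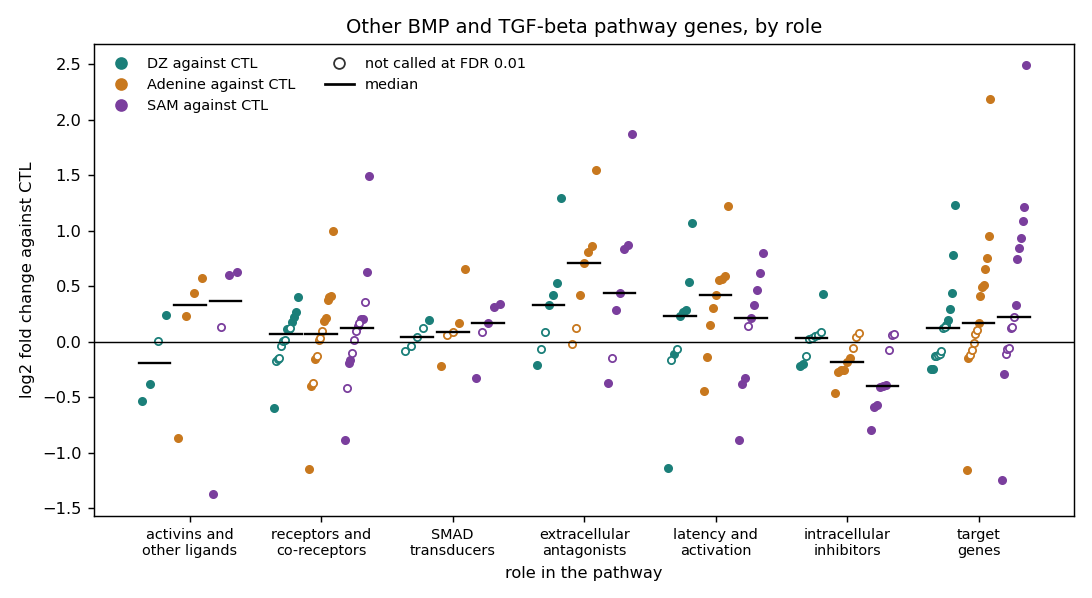
Each point is the log2 fold change against CTL (y axis) of 1 of the 63 other pathway genes, grouped by role (x axis) and colored by treatment; open points were not called and lines are medians. The intracellular inhibitors lie mostly below 0 with adenine and SAM, and the extracellular antagonists mostly above it.

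Finally, the gene of the table whose log2 CPM followed each of the 9 genes most closely over the 12 libraries was found by Pearson's r. The 12 libraries form 4 groups, so r mostly describes the order of the groups. Bmp4 was closest to Cldn1, a tight junction protein (r = 0.995), Grem1 to Tars2, the mitochondrial threonyl-tRNA synthetase (r = 0.991), and Tgfb1 to Hspa1a, an inducible heat shock protein (r = 0.996). Hspa1a had means of 3.86 log2 CPM in CTL, 3.52 with DZ, 4.77 with adenine, and 5.08 with SAM, the same order of groups as Tgfb1. For Id3 it was Phlda3 (r = 0.993), for Tgfb3 Cercam (r = 0.993), for Id1 Tspyl5 (r = 0.97), for Tgfb2 Bsg (r = 0.969), for Smad6 Iftap (r = 0.952), and for Smad7, which varied least between groups, Ivns1abp (r = 0.808).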

How the data were processed

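RNA of 12 libraries was analyzed. Per the methods and the submitters' processing notes, the authors used Trimmomatic for trimming, HISAT2 for alignment to GRCm39 (GENCODE vM27), StringTie for quantification, and edgeR on genes that reached a CPM of 1 in every sample. The deposited table holds log2 CPM of normalized library size; the scaling method is not given in the sources used here. Because log2 CPM are not counts, they were tested with limma 3.58.1 in R 4.3.3 (lmFit, contrasts, eBayes, variance trend on), all libraries entering 1 model, with Benjamini-Hochberg adjustment over 12591 genes and an FDR of 0.01. Whole reads were recovered from the log2 values with a prior count of 2, and 100% of values came out whole within 0.05 of a read; these reads are StringTie estimates.

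Positions, lengths, and overlaps came from GENCODE vM39, with 12575 genes matched by identifier and 16 not. Named genes are all members present, the largest called rise and fall of each pathway role in each comparison with CTL, and the gene closest to each member; exceptions are stated, and 1 pathway gene is not reported by name here. Members and lists were chosen with earlier results of these data known. Replicate numbers were not used to pair the dishes in the main model. The deviations of same-numbered libraries had r between -0.142 and 0.181, which cannot exclude that such dishes were handled together. The alternatives are given in the closing section. Python 3.11.15, numpy 2.4.6, pandas 2.3.3, and matplotlib 3.10.9 were used.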

Additional observations from a re-analysis of the deposited data

How the results depend on the processing

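With a required log2 fold change of 0.5, 3 of the 9 genes were called with DZ and 0 between SAM and adenine. With adenine and with SAM the calls of Smad6 and Tgfb2 were lost, since their changes were under 0.5. The pathway list gave 9 (DZ), 19 (adenine), 22 (SAM), and 5 (SAM against adenine), and all genes gave 1536, 3386, 4425, and 1215. Under total-count scaling the median change of all genes with SAM moved from -0.0154 to 0.1065, and the share of called genes that were higher moved from 48.5% to 61.2% with SAM and from 48.6% to 63.2% for SAM against adenine. Total-count scaling also turned the sign of Smad7 with adenine (0.0596) and of Smad6 for SAM against adenine (0.0458), neither of which was called. Leaving out each library in turn moved Smad7 with adenine between -0.054 and 0.032, Smad6 for SAM against adenine between -0.073 and 0.061, and Id3 for SAM against adenine between -0.023 and 0.125, and left 4 to 6 of the 9 genes called with DZ, 7 to 8 with adenine, 7 to 8 with SAM, and 4 for SAM against adenine. The Id3 call with DZ was lost without a variance trend (limma adjusted p = 0.0113), in a model of the 2 groups alone (0.0121), and with voom on recovered reads (0.0159). Quantile normalization ended the Smad6 calls with adenine (0.24, adjusted p = 0.0144) and SAM (0.22, adjusted p = 0.0207). Id1 for SAM against adenine was called at an FDR of 0.05, in a model of the 2 groups alone (adjusted p = 0.00998), and with voom (adjusted p = 0.00734). Of 572 recomputed log2 fold changes, 544 kept their sign and call, 15 lost the call, 4 gained it, and 9 changed sign. With a replicate block, 5762 genes were called with DZ, 7739 with adenine, 8734 with SAM, and 5337 for SAM against adenine, and no call of the 9 genes changed, whereas Smad3 with DZ then passed the threshold. The cause of these shifts was not tested. Id1, with 132 to 515 reads a library, had the widest error of the 9 genes.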
